A study of Mus musculus with 8 samples.

Results

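The carbonic anhydrases described here are Car1, Car2, Car3, Car4, Car7, Car8, Car9, Car12 and Car13, 9 of the 16 genes with a carbonic anhydrase symbol among 49585 gene identifiers. They were chosen by name, with their levels in these libraries already known, so those levels are given as a description. RNA was taken from the intestine of C57BL/6 mice, 4 of them recipients of Klebsiella and 4 recipients of Lactobacillus, with 1 library per mouse. The labels do not say what was transferred, for how long, how old the mice were or which segment of intestine was taken. Libraries are called by recipient group and by the mouse number of the labels.

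Carbonic anhydrases are zinc enzymes that interconvert carbon dioxide and water with bicarbonate and a proton. In the large intestine they supply the bicarbonate and protons that surface epithelial cells exchange for chloride and sodium when salt and water are absorbed. Car1, Car2, Car3, Car7 and Car13 are cytosolic, Car4 is anchored to the outer face of the cell membrane by a lipid, and Car9 and Car12 span the membrane with their catalytic domain outside the cell. Car8 lacks enzyme activity and is known for binding the inositol trisphosphate receptor.

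The deposited values are FPKM, that is, read counts divided by gene length and by the size of the library. Whole reads could be recovered from them, 15753959 to 21548070 per library. The tissue label was met by epithelial transcripts, with Epcam, an epithelial adhesion gene, at 611 to 689 FPKM in all 8 libraries. Markers of other material were uneven. The pancreatic acinar list of 10 genes summed to 1673 FPKM in Klebsiella recipient 2, 840.1 in Lactobacillus recipient 3 and 244.5 to 479 in the other 6 libraries. Of it, 7 protease and lipase genes, picked after their values were seen, summed to 1075 and 323 FPKM in those recipients and to at most 7.39 elsewhere, while Cela1, an elastase gene, was at 185 to 449.6 FPKM in all 8 libraries. The colon marker Hoxb13 was at 81.0 to 237 FPKM.

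Transcripts of 3 members made up nearly all carbonic anhydrase signal. Over the 8 libraries the mean was 1004 FPKM for Car1, 834 for Car2 and 595 for Car4, which ranked 91, 120 and 167 among 16865 genes with a mean of at least 0.5 FPKM. Together they held 94.8% to 97.5% of the summed FPKM of the 16 family genes. Car9 followed at 45.0 FPKM, then Car3 at 19.4, Car12 at 12.4, Car13 at 8.22, Car8 at 7.55 and Car7 at 1.29. The share of Car1 alone ran from 12.8% in Klebsiella recipient 4 to 67.8% in Lactobacillus recipient 2, and that of Car2 from 19.2% to 56.9%. All 9 members passed the filter on low values.

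**Figure D1:**
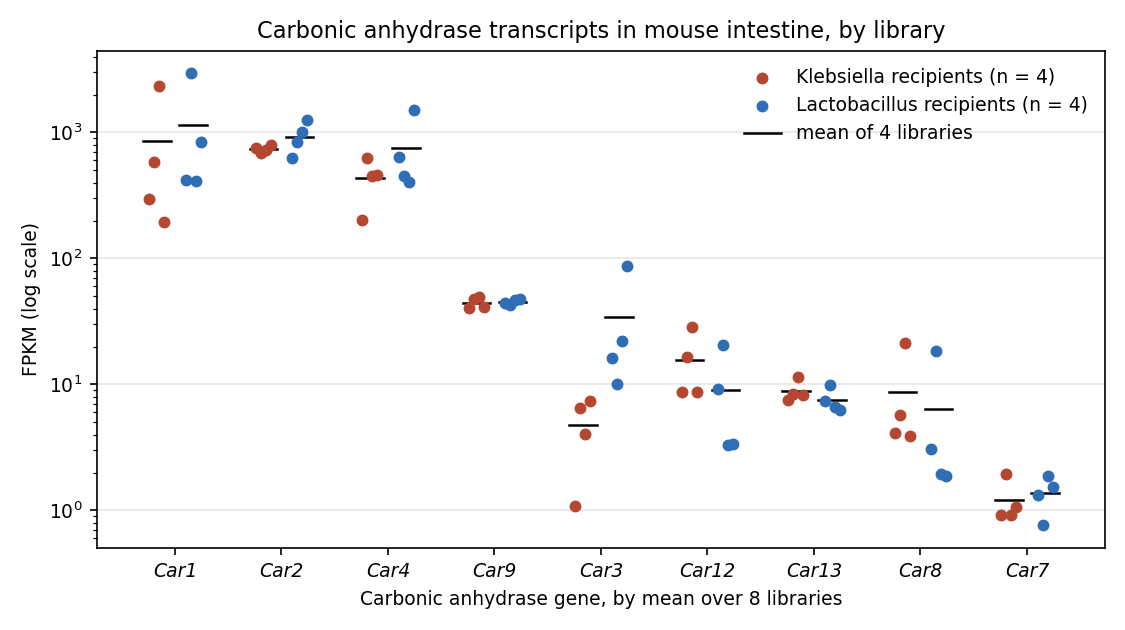
FPKM on a log axis of the 9 carbonic anhydrases in each library, with Klebsiella recipients in red, Lactobacillus recipients in blue and a bar at each mean of 4. Car9 sits between 40.2 and 49.1 FPKM in all 8 libraries, while Car1 spans 195 to 2947 and Car3 spans 1.08 to 87.7.

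Order between genes depends on the gene lengths behind FPKM. The lengths implied by the recovered reads matched the summed exons of GENCODE M21 to within 0.3% for Car8 and Car13. For the other members the summed exons were longer, by 1.36 times for Car1 and by up to 3.34 times for Car12. On summed exon length the mean of Car12 was 3.70 FPKM and its place moved from 6 to 8, below Car13 and Car8, which moved up to places 6 and 7. By the mean over 8 libraries the other members kept their places. Values of 1 gene compared across libraries are not touched by this.

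The members fell into different patterns across the libraries, set out in the plot of centred levels. Spread was measured as the SD of log2(FPKM + 0.5) over the 8 libraries. It was 1.71 for Car3, 1.39 for Car1, 1.23 for Car8, 1.06 for Car12 and 0.81 for Car4, and each of these exceeded the SD of more than 95% of the genes tested. Car7, Car2 and Car13 had SDs of 0.36, 0.32 and 0.27. Car9 had an SD of 0.11, larger than that of only 8.05% of the genes tested. Car8 and Car12 were the most alike of the strongly varying members, with a root mean square difference of 0.44 between their centred log2 profiles. The difference was 0.85 between Car1 and Car8, and 2.38 between Car3 and Car8, the least alike pair.

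**Figure D2:**
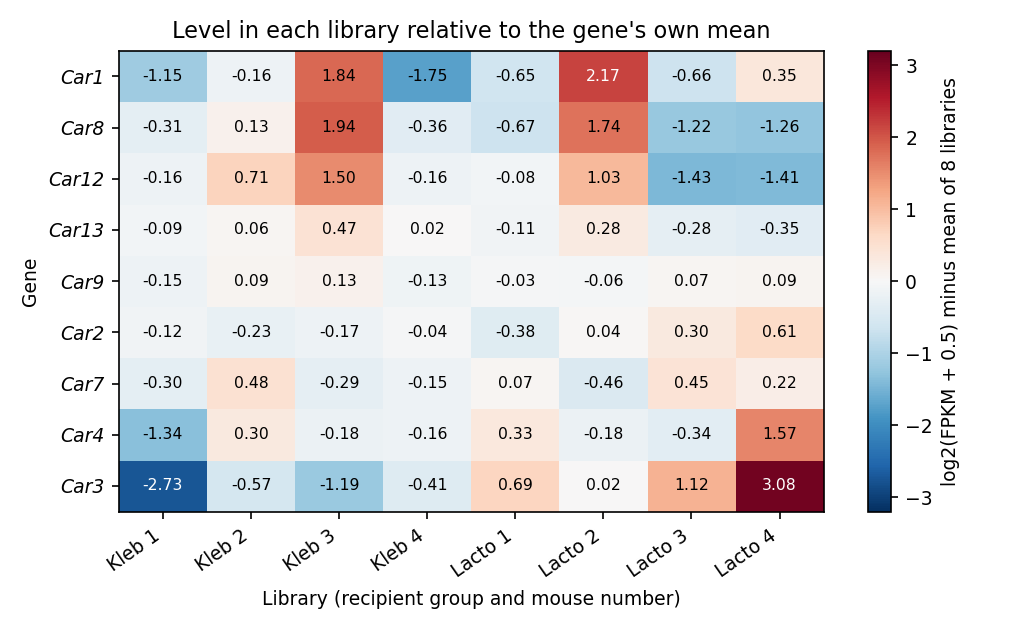
Colour and number give log2(FPKM + 0.5) in each library minus the gene's mean over 8 libraries, with libraries in columns and genes in rows. Klebsiella recipient 3 and Lactobacillus recipient 2 are the highest columns for Car1, Car8, Car12 and Car13, and Lactobacillus recipient 4 is the highest for Car3 at 3.08 and Car4 at 1.57.

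Car1, a cytosolic enzyme abundant in red blood cells and in the epithelium of the large intestine, was high in 1 library of each group. Its level was 295, 587, 2342 and 195 FPKM in Klebsiella recipients 1 to 4 and 418, 2947, 414 and 836 FPKM in Lactobacillus recipients 1 to 4. The lower of the values in Klebsiella recipient 3 and Lactobacillus recipient 2 was 2.80 times the highest of the other 6 libraries. The groups overlapped throughout. Car1 stood at 3.24 and 3.53 times the FPKM of Car2 in those same libraries and at 0.25 to 0.85 times in the others. These ratios rest on the deposited lengths. Summed exons were longer by 1.36 times for Car1 and 2.23 times for Car2, so on them each ratio would be higher.

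Car8 showed the same pair of high libraries at a much lower level. It was at 4.09, 5.70, 21.3 and 3.93 FPKM in Klebsiella recipients 1 to 4 and at 3.08, 18.5, 1.93 and 1.86 FPKM in Lactobacillus recipients 1 to 4. These values rest on 126 to 1411 reads. The lower value of the high pair was 3.25 times the highest of the others, a wider gap than for Car1.

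Car12 was more graded. This membrane enzyme, whose catalytic domain faces outward, was at 8.72, 16.4, 28.7 and 8.72 FPKM in Klebsiella recipients 1 to 4. In Lactobacillus recipients 1 to 4 it was at 9.26, 20.5, 3.33 and 3.37 FPKM. The same pair was highest, but Klebsiella recipient 2 came within 1.25 times of it, and Lactobacillus recipients 3 and 4 were lowest.

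Car13, a widely expressed cytosolic enzyme, had the same highest pair in a narrow range. It was at 7.55, 8.47, 11.4 and 8.20 FPKM in Klebsiella and at 7.44, 9.92, 6.58 and 6.23 FPKM in Lactobacillus recipients 1 to 4, with the lower value of the pair 1.17 times the highest of the others. The order of the other 6 libraries differed between members: Lactobacillus recipient 4 was the third highest library for Car1 and the lowest for Car13. In all, 4 of 9 members had both libraries above the other 6, as did 5.19% of the genes tested. This is an order read from the values, not a test.

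Some transcripts of position along the gut were highest in the same pair of libraries. Hox genes keep a record of position along the body axis, with late members such as Hoxd13 and Hoxb13 marking the hindmost gut. Hoxb6 was at 40.2 FPKM in Klebsiella recipient 3 and 45.2 in Lactobacillus recipient 2, and at 1.16 to 3.87 in the others. The sum of Hoxb5 to Hoxb8 was 78.3 and 89.7 FPKM in that pair and 3.93 to 8.75 in the other 6 libraries. Hoxd10 to Hoxd13 did not single out the pair. Their sum was 59.2, 4.51, 5.76 and 9.60 FPKM in Klebsiella recipients 1 to 4 and 53.1, 23.6, 34.9 and 52.4 in Lactobacillus recipients 1 to 4. On the position list of 12 genes, 5 (Hoxb5 to Hoxb8 and Hoxa7) had both libraries of the pair above the other 6. Of the 12, all measured above 0, 0 were called higher and 0 lower between groups by limma. The list summed to 239.8 to 317 FPKM in Klebsiella and 326 to 417 FPKM in Lactobacillus libraries. This sum joins genes with unlike patterns, and Hoxb13, at 81.0 to 237 FPKM with overlapping groups, held much of it. Of the 12 log2 differences, 10 were negative and 2 positive, with a median of -0.18. Red cell transcripts summed to 69.6 FPKM in Klebsiella recipient 3 and 110.1 in Lactobacillus recipient 2, within the 53.6 to 171 of the other libraries. Enteric neuron transcripts were also highest in the pair. That list of 10 genes summed to 102.7 FPKM in Klebsiella recipient 3, 120.1 in Lactobacillus recipient 2 and 38.3 to 97.0 in the others, and 5 of its 10 genes had both libraries above the other 6. The part of position, of red cell content and of neuron content in the levels of Car1, Car8, Car12 and Car13 was not tested.

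**Figure D3:**
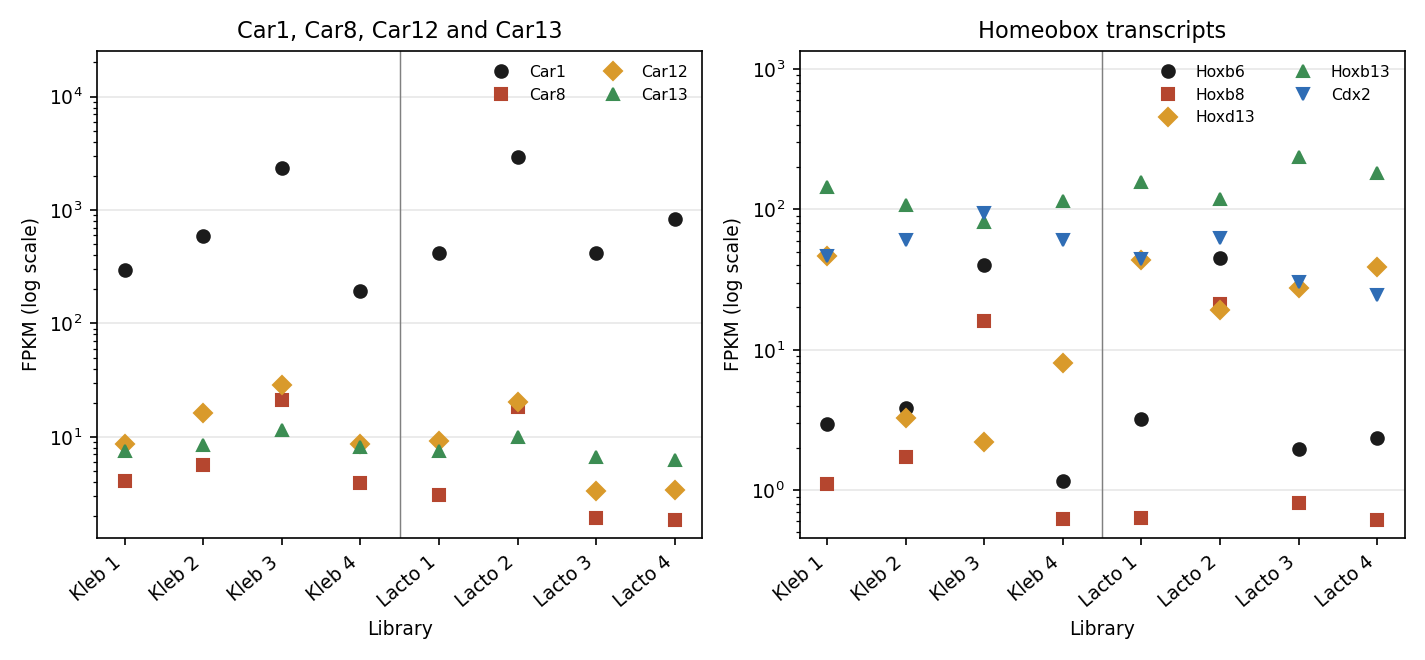
FPKM on a log axis in each library for Car1, Car8, Car12 and Car13 (left) and for 5 homeobox genes (right), with a line between the recipient groups. Hoxb6 and Hoxb8 are highest in Klebsiella recipient 3 and Lactobacillus recipient 2, as are the 4 carbonic anhydrases, while Hoxd13 is highest in Klebsiella recipient 1 at 46.3 FPKM.

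The genes with profiles nearest to these members were found among 13065 named genes outside the family with a mean of at least 1 FPKM. For Car1 they were Ggt1, a gamma-glutamyltransferase, at a root mean square difference of 0.38 log2 units over 8 libraries, Hoxb5 at 0.46 and the neuropeptide gene Gal at 0.47. For Car8 they were the lipid transporter gene Abca12 at 0.29, Plet1os at 0.31 and Prkg2, a cyclic GMP-dependent kinase, at 0.34. For Car12 they were B4galnt1, a ganglioside-forming glycosyltransferase, at 0.23, ccdc198 at 0.25 and Ffar2, a receptor for short-chain fatty acids, at 0.26. Ggt1 was at 7.26 and 5.75 FPKM in the high pair and at 0.20 to 1.38 elsewhere. Ffar2 was highest in Klebsiella recipient 3 at 31.9 FPKM and lowest in Lactobacillus recipient 4 at 5.81.

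Car4, the lipid-anchored enzyme that faces the gut lumen, had another pattern. It was at 203, 631, 451 and 459.6 FPKM in Klebsiella recipients 1 to 4 and at 643, 451, 404 and 1517 FPKM in Lactobacillus recipients 1 to 4. Lactobacillus recipient 4 was highest and Klebsiella recipient 1 lowest, and the other 6 lay within 404 to 643. The gene with the most similar profile was Slc26a3, the chloride-bicarbonate exchanger of the colon surface, at a root mean square difference of 0.17. Slc26a3 was at 97.7, 343, 227 and 233 FPKM in Klebsiella and at 239.7, 193, 173 and 630.4 FPKM in Lactobacillus recipients 1 to 4. The ratio of Car4 to Slc26a3 stayed within 1.84 to 2.68 while Car4 itself varied 7.49-fold. Trim6 at 0.23 and the adhesion gene Ceacam20 at 0.28 came next.

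Some other surface transcripts shared those extremes. On the surface colonocyte list of 12 genes, 5 were highest in Lactobacillus recipient 4 and 7 lowest in Klebsiella recipient 1, and 4 (Slc26a3, Lypd8, Muc3 and Slc20a1) were both. Another 6 were highest in Klebsiella recipient 3, among them Guca2a, which encodes guanylin, at 2422 FPKM, and Fabp2 was lowest in Lactobacillus recipient 4 at 28.9. Of the surface colonocyte list, all 12 genes were tested and 0 were called in either direction, with a median log2 difference of -0.14. The list summed to 4459.7 FPKM in Klebsiella recipient 1, the lowest, and 10326 FPKM in Lactobacillus recipient 4, the highest, which are also the extremes of Car4. Lypd8, a secreted surface protein, took 1654 and 4973 FPKM of these sums. The list ran to 8769.5 FPKM in Klebsiella and from 6507 FPKM in Lactobacillus libraries. Aqp8, a water channel, and Atp12a, the colonic proton pump, were chosen after their values were seen. Aqp8 ran from 59.5 FPKM in Lactobacillus recipient 3 to 390.0 in Lactobacillus recipient 4, and Atp12a from 12.9 in Klebsiella recipient 1 to 98.3 in Lactobacillus recipient 4. The part of surface cell content in the level of Car4 was not tested. In bulk tissue, fewer cells of a type and less RNA per cell cannot be told apart.

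Car3, a cytosolic enzyme of low activity that is abundant in fat, liver and slow skeletal muscle, varied most, 81.3-fold. It was at 1.08, 6.52, 4.08 and 7.40 FPKM in Klebsiella recipients 1 to 4, from 22 to 166 reads. In Lactobacillus recipients 1 to 4 it was at 16.3, 10.1, 22.2 and 87.7 FPKM, from 259 to 1988 reads. The groups did not overlap, and Lactobacillus recipient 4 stood far above the others. The log2 difference, Klebsiella minus Lactobacillus, was -2.45 (SE 0.70, limma adjusted p 0.774, over all alternatives 0.376 to 0.926). It was -1.83 without Lactobacillus recipient 4. Lower values without overlap were found for 1 of 9 members and for 1.80% of the genes tested, and groups did not overlap in either direction for 1 of 9 members and 2.99% of genes. Car3 is also among 15 genes that the authors deposited in a table of differing genes, so its difference was known when the members were chosen.

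Several fat transcripts moved with Car3, and others did not. The nearest profiles were those of Cfd, the adipocyte protease adipsin, at a root mean square difference of 0.25, Adipoq, the hormone adiponectin, at 0.29 and Cyp2e1, a cytochrome P450, at 0.46. Cfd was at 0.62, 8.01, 4.32 and 8.99 FPKM in Klebsiella and at 17.05, 11.0, 25.6 and 116 FPKM in Lactobacillus recipients 1 to 4. The ratio of Car3 to Adipoq was 3.96 to 4.36 in 6 libraries, 5.99 in Lactobacillus recipient 1 and 7.79 in Klebsiella recipient 1, where Adipoq was at 0.14 FPKM. Adipoq, Plin1, Cfd, Retn, Lep and Cidec, 6 of the fat list picked after their values were seen, summed to 1.32 to 14.5 FPKM in Klebsiella and 17.8 to 175 FPKM in Lactobacillus libraries. The whole list of 15 summed to 147 to 182 against 179 to 365 FPKM, and 0 of its 13 tested genes were called. Much of that sum came from Pnpla2, at 64.1 to 85.3 FPKM over the 8 libraries, and Pparg, at 23.1 to 62.2. Of the 15, 12 were highest in Lactobacillus recipient 4. Fabp4, a fatty acid binding protein, was at 20.04 FPKM in Klebsiella recipient 1, above Lactobacillus recipients 1 and 2 at 13.3 and 17.3. Pparg, a regulator of fat cells that epithelium also expresses, and Cidea, a lipid droplet protein, were lowest in Lactobacillus recipient 4 at 23.1 and 0.24 FPKM. Plin1 was at 0 in Klebsiella recipient 1, and Lep was at 0 in Klebsiella recipients 1, 2 and 3. Of the skeletal muscle list, Tnnc2 and Myh4 were at 0 in all 8 libraries, and the list of 10 summed to 13.8 to 25.2 FPKM in Klebsiella and 13.7 to 19.7 in Lactobacillus libraries. Hoxd13, given with the position genes, was at 2.198 to 8.03 FPKM in Klebsiella recipients 2 to 4 and at 19.1 to 43.9 in Lactobacillus libraries, but it was highest, at 46.3, in Klebsiella recipient 1, where Car3 was lowest. The part of carried-over fat, of muscle and of position in the level of Car3 was not tested.

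**Figure D4:**
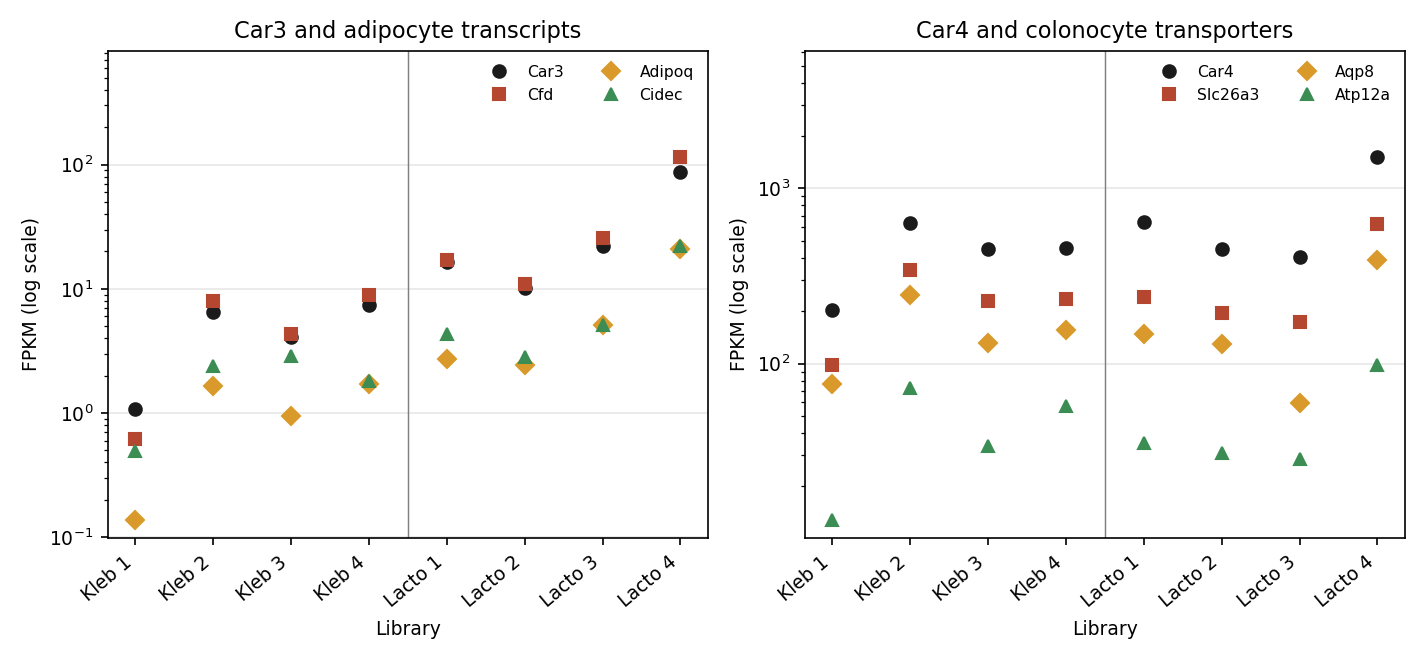
FPKM on a log axis in each library for Car3 with 3 adipocyte transcripts (left) and Car4 with 3 colonocyte transport genes (right), with a line between the groups. Car3 runs beside Cfd from 1.08 to 87.7 FPKM, and Car4 runs above Slc26a3 with both highest in Lactobacillus recipient 4.

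Car2, the fast cytosolic enzyme found in most epithelia, was abundant and varied 1.99-fold. It was at 749, 694, 723 and 791 FPKM in Klebsiella and at 627, 836, 1004 and 1248 FPKM in Lactobacillus recipients 1 to 4. Lactobacillus recipients 3 and 4 were the highest libraries, while the Klebsiella libraries lay close together. Car7, a cytosolic enzyme best known from neurons, was near the filter. It was at 0.91, 1.93, 0.93 and 1.07 FPKM in Klebsiella and at 1.33, 0.76, 1.88 and 1.53 FPKM in Lactobacillus recipients 1 to 4, from 21 to 59 reads per library. The groups overlapped for both genes. Of the 9 members, 3 (Car2, Car3 and Car4) were highest in Lactobacillus recipient 4, as were 20.6% of the genes tested.

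Car9, a membrane enzyme and a target of the hypoxia-inducible factors, was the least variable. It was at 40.2, 47.7, 49.1 and 40.9 FPKM in Klebsiella and at 44.0, 43.0, 47.2 and 47.7 FPKM in Lactobacillus recipients 1 to 4, a 1.22-fold range. The hypoxia list of 14 genes, all tested, held 7 positive and 7 negative log2 differences with a median of -0.036, and 0 were called. These differences ran from -0.93 for Ankrd37 to 0.73 for Hilpda, so a median near 0 does not mean that each gene was even. Ldha, lactate dehydrogenase, ranged from 843 to 1044 FPKM and Pgk1, a glycolytic kinase, from 169 to 241. Slc2a1, the glucose transporter GLUT1, ranged from 62.0 to 114, and Hk2, a hexokinase, from 50.4 to 164, wider than Car9. The log2 difference of Car9 was -0.035 (SE 0.092, limma adjusted p 0.948).

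Promoter sequence from RefSeq on GRCm38.p6 was at hand for 4 of the 9 members. It is shown for Car9, Car12 and Car4, which stand for an even pattern, a graded one and one near that of Slc26a3. The last 30 bases before the RefSeq start of Car9 and the last 100 before those of Car12 and Car4 are on the plus strand at chr4:43506996-43507025, chr9:66713586-66713685 and chr11:84957654-84957753. Capitals mark a match to 1 of 3 motifs searched on both strands of the last 200 bases. The first was the core bound by hypoxia-inducible factors, ACGTG. The second was the box TATAAA, found before some start sites. The third was TTTATG, bound by CDX factors of gut epithelium.
Car9: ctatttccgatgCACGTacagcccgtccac
Car12: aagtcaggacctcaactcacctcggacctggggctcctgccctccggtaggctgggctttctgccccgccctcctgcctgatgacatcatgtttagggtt
Car4: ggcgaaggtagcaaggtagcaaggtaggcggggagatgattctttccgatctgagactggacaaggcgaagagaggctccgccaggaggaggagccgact
Car9 held 1 match to the hypoxia core, on the minus strand, 14 to 18 bases before the start, inside a first exon of Car9 in GENCODE. That core was in 13.95% of all 32851 promoter windows of 200 bases, the second motif in 9.96% and the third in 8.51%. Car12 and Car4 held none of the 3 in this window. A match is a run of letters, not a bound site.

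On GRCm38 in GENCODE M21, Car13, Car1, Car3 and Car2 lie in this order on chromosome 3, with 2 pseudogenes and no other protein-coding gene between the start of Car13 and the end of Car2. Car13 spans 14641727 to 14663002 on the plus strand, Car1 14766216 to 14808368 on the minus strand, Car3 14863512 to 14872523 and Car2 14886273 to 14900770, both on the plus strand. Profiles of these neighbours differed to varying degrees. The root mean square difference between centred profiles was 0.49 for Car2 and Car13, which both varied little, 1.96 for Car1 and Car3, 1.41 for Car3 and Car2 and 1.15 for Car1 and Car13. The pseudogene Gm16399 overlaps Car1. Car8 (chromosome 4, 8143362 to 8239041, minus strand) overlaps Gm11799 and Gm25355, and Car9 (chromosome 4, 43506966 to 43513729, plus strand) overlaps Gm12454. Gm16399 and Gm11799 lie on the same strand as the member they overlap, so strand would not separate their reads. Gm25355 and Gm12454 lie on the opposite strand, and the labels do not say whether counting used strand. Reads in these overlaps cannot be told apart here. Car4 lies on chromosome 11 (84957786 to 84966044), Car7 on chromosome 8 (104534689 to 104550343) and Car12 on chromosome 9 (66713686 to 66766845), with no gene overlapping them.

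The comparison of recipients asked whether carbonic anhydrase transcripts differed between the mice labelled Klebsiella and Lactobacillus recipients. No member passed the threshold. Of 9 members, 0 were higher and 0 lower at a limma adjusted p under 0.05, against 0% of all genes tested, and 1 member (Car3) had an unadjusted p under 0.05, as did 6.07% of genes. Negative log2 differences were found for 6 members and positive ones for 3, with a median of -0.13 against -0.017 over all genes. Beside Car3, the widest were 0.95 for Car12 (SE 0.59, adjusted p 0.774), 0.70 for Car8 (SE 0.74, adjusted p 0.844), -0.69 for Car4 (SE 0.46, adjusted p 0.781) and -0.61 for Car1 (SE 0.85, adjusted p 0.887). Leaving out 1 library moved each of the 4. The difference of Car1 was -1.32 without Klebsiella recipient 3 and 0.016 without Lactobacillus recipient 2. That of Car8 was 0.17 and 1.40, and that of Car12 was 0.60 and 1.45, without the same libraries. With both of these libraries left out, the difference of Car8 was 0.87 (SE 0.24, limma adjusted p 0.619). Car8 then lay at 3.93 to 5.70 FPKM in Klebsiella and 1.86 to 3.08 FPKM in Lactobacillus recipients. The libraries left out were those where Car8 was highest. How many of all genes part in this setting was not counted, so these ranges are only a description. In the same setting Car12 differed by 1.103 (SE 0.42, limma adjusted p 0.619) and Car1 by -0.70 (SE 0.44, limma adjusted p 0.696). The difference of Car4 was -0.28 without Lactobacillus recipient 4. A p above the threshold with these SEs does not show that the groups were alike. Car2 differed by -0.29 (SE 0.19), Car13 by 0.23 (SE 0.18) and Car7 by -0.13 (SE 0.26).

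**Figure D5:**
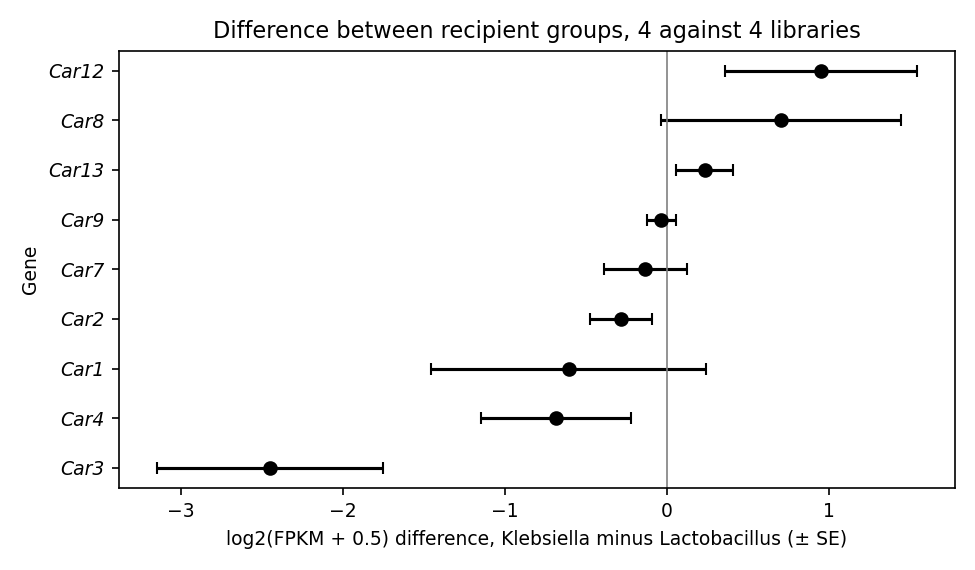
Log2(FPKM + 0.5) difference between recipient groups, Klebsiella minus Lactobacillus, with its limma SE as a bar for each of 9 members, 4 against 4 libraries. Car3 lies lowest at -2.45, Car9 has the shortest bar at an SE of 0.092, and none passed an adjusted p of 0.05.

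The remaining family genes were scarce. Car11, a member without enzyme activity, was at 1.94 to 5.94 FPKM, above Car7, so the described members are not simply the most abundant ones. Car14, a membrane enzyme, was at 0.46 to 1.52 FPKM and Car5b, a mitochondrial one, at 0.54 to 1.35. Car15 was at 0.045 to 0.67 FPKM, Car10 and Car5a were at most at 0.27 and 0.24, and Car6, a salivary enzyme, was listed at 0 in all libraries. Of these 7 genes 3 were tested and 0 were called.

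Transporters that use bicarbonate or protons were taken as a list of 21 genes. Of 18 tested, 0 were called higher and 0 lower, 6 had positive and 12 negative log2 differences, and the median was -0.14. Slc26a2, a sulphate exchanger, ran from 141 to 422 FPKM, Slc4a2, a basolateral chloride-bicarbonate exchanger, from 109 to 200.2, and Slc9a3r1, a scaffold of sodium-proton exchangers, from 80.5 to 129. The smallest adjusted p on the list was 0.774.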

How the data were processed

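Per the labels' protocols, RNA was taken with Trizol from frozen intestine and made into libraries with a TruSeq kit. DESeq2 1.10.1, HTSeq 0.6.0, STAR 2.5.1b and CASAVA are listed, without roles, per the submitters' processing notes. Neither build nor annotation is given in the sources used here. FPKM values were deposited for 49585 identifiers, of which 49326 matched a GENCODE M21 symbol. The authors also deposited read counts per library (40455910 to 55447220 filtered reads) and percent values per library, with 90.65% to 94.57% of bases at quality 30 and 95.04% to 96.59% of reads mapped. Both lowest values were those of Klebsiella recipient 4, and every other library had at least 94.03% of bases at quality 30. Lactobacillus recipient 4 had the highest mapped percent and the lowest GC content, 49.37% against 50.04% to 51.2% in the others.

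Values were analysed as log2(FPKM + 0.5) for genes with a mean of at least 0.5 FPKM, which understates changes of low genes. limma 3.58.1 in R 4.3.3 (mean-variance trend, two-sided, Benjamini-Hochberg over 16865 genes) compared Klebsiella minus Lactobacillus, 4 against 4 mice. The fit was tried on simulated counts with the same spread setting for every gene and no uneven tissue content. That trial does not show how the fit performs on libraries as uneven as these. Whole reads were recovered from FPKM for all 26963 genes detected in 2 or more libraries (relative tolerance 1e-09), up to a factor shared by all libraries of a gene, and cover counting error only. Python 3.11.15, pandas 2.3.3, numpy 2.4.6 and matplotlib 3.10.9 did the rest.

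Members and lists (position, surface colonocyte, adipocyte, hypoxia, bicarbonate and proton partners, other carbonic anhydrases, red cell, skeletal muscle, pancreatic acinar, enteric neuron, epithelium) were chosen with earlier results of these data known. The text names every member, up to 4 genes per list by mean FPKM, Hoxb6, Hoxd13, markers at 0, and the 3 nearest profiles of members with an SD of at least 0.5. Other genes were chosen after their values were seen. Alternatives were other pseudocounts (0.1 and 1), filters and scalings, voom on recovered reads, the mouse number as a block, each library left out, and Klebsiella recipient 3 with Lactobacillus recipient 2 left out.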

Additional observations from a re-analysis of the deposited data

Results flagged for a closer look

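In 5 of 18 groups of 4 libraries a single library stood apart from the rest, by the gap to its neighbour over the whole range (Dixon's critical value 0.829 for 4). Chance flags about 1 in 20 groups, and over all genes tested 6.32% of 33718 such groups had a library apart. The members were chosen with these high libraries known, so their count is a description. The ratio was 0.927 for Car8 in Lactobacillus recipients, where recipient 2 was at 18.5 FPKM and the next at 3.08. It was 0.898 for Car8 in Klebsiella recipients, where recipient 3 was at 21.3 FPKM and the next at 5.70. For Car1 it was 0.834, from 2947 FPKM in Lactobacillus recipient 2 against 836 in the next. For Car3 it was 0.845, from 87.7 FPKM in Lactobacillus recipient 4 against 22.2 in the next. For Car7 it was 0.848, from 1.93 FPKM (54 reads) in Klebsiella recipient 2 against 1.07 (27 reads) in the next.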

How the results depend on the processing

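Under all 17 alternatives 0 genes and 0 members were called by limma. The smallest adjusted p over all genes was 0.462 as reported and 0.314 to 0.926 over the alternatives, with 566 to 2004 genes at an unadjusted p under 0.05 against 1024 as reported. That count was 566 without Lactobacillus recipient 3, 2004 without Lactobacillus recipient 1 and 1825 without Klebsiella recipient 3. Without filter it was 1490 of 29869 genes. Car1 ranged from -1.32, without Klebsiella recipient 3, to 0.016. Signs turned for Car1 without Lactobacillus recipient 2 (0.016) and for Car9 without Klebsiella recipients 1 or 4 (0.011 and 0.0026, from a lowest value of -0.11 without Klebsiella recipient 3 and Lactobacillus recipient 2), and the cause was not tested. The other 7 members kept their sign throughout. Car3 ranged from -2.86, without Klebsiella recipient 3 and Lactobacillus recipient 2, to -1.83. With the mouse number as a replicate block 0 genes and 0 members were called, at a smallest adjusted p of 0.797. Deviations from the group mean in same-numbered mice had correlations across genes of 0.19, -0.10, -0.059 and -0.16. Those of differently numbered mice ran from -0.31 to 0.19. The labels do not say whether the numbers pair mice, and these correlations cannot decide it. Car7, at 21 to 59 reads, is limited by depth.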

Other observations

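Profiles of Car12 and Fabp2, a fatty acid binding protein of absorptive cells, kept a ratio of 0.070 to 0.14 while Car12 varied 8.63-fold. Cdx2, a transcription factor of gut epithelium, was highest in Klebsiella recipient 3 at 93.8 FPKM and lowest in Lactobacillus recipient 4 at 24.5. Car1 and Car8, high in the same pair of libraries, parted elsewhere: the ratio of Car1 to Car8 was 49.6 in Klebsiella recipient 4 and 448 in Lactobacillus recipient 4. Both comparisons were chosen after the values were seen.

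The remaining marker lists held 0 called genes each. Of 9 tested enteric neuron genes 1 had a positive log2 difference (median over the 9 of -0.12). Of 10 epithelial genes 8 were positive (median 0.17), of 6 tested red cell genes 1 (median -0.16), of 4 tested skeletal muscle genes 4 (median 0.25) and of 9 tested pancreatic acinar genes 2 (median -0.37).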
